A study of Columba livia with 9 samples.

Results

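The 200 mRNAs described here were several-fold higher in the bursa of Fabricius (BF) of newly hatched pigeon squabs than in squabs of 13 and 26 days, with little difference between these elder stages, and were taken from 13072 mRNAs measured. Total RNA was depleted of ribosomal RNA and sequenced from the BF of 9 White King squabs (*Columba livia*), all female and each a separate bird. The stage names give the age in days, and 3 libraries each were made at 1D, 13D and 26D. No treatment, genetic change or sorting of cells was part of the design. The comparison addresses which mRNAs mark the BF shortly after hatching and are low once the lymphoid follicles have enlarged.

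The members were chosen on their measured values. The deposited TPM of each library (transcript abundances corrected for length and scaled to 1 common total) were divided by the median TPM of the 10027 mRNAs above 0.5 TPM in all 9 libraries, which gives a relative level where 1 is a typical mRNA of that library. A mean of at least 5 TPM at 1D was met by 8564 mRNAs. For 971 of them (11.3%) the relative level in all 6 elder libraries lay below the lowest of the 3 libraries of 1D, and 835 also had mean relative levels at 13D and 26D within 0.5 on the log2 scale of each other. Of these 835, the 200 with the lowest ratio of elder to 1D level were taken. The opposite order, with all 6 elder libraries above the 3 of 1D, was met by 1094 of the 8564 (12.8%). The minimum of 5 TPM at 1D left out mRNAs that were low at 1D and rose, so this share is no even counterpart of the 11.3%. Since the same values chose the members, every difference between stages given for them is a description. Counts of members called by limma are given below as a description too, and are no test of these differences. Of the 200, 174 carried a gene symbol, 21 a LOC identifier and 5 matched no gene of the RefSeq table.

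The BF is a sac on the roof of the cloaca of birds, in which B cell precursors settle, diversify their immunoglobulin genes and multiply in follicles. The follicles form where the lining epithelium meets a mesenchyme that lays down collagen, laminin and signalling proteins, and a coat of smooth muscle encloses the organ. In RNA of unsorted tissue, as here, fewer cells of a type and less RNA per cell cannot be told apart.

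Few of these mRNAs were lost from the BF. The mean of the members at 1D ran from 5.02 to 360.0 TPM with a median of 16.4 TPM, and the median of the stage means was 3.60 TPM at 13D and 2.38 TPM at 26D. Of the 200, 147 remained above 0.5 TPM in all 9 libraries. Only ACTC1, HBAD, SRD5A2, KCNIP1 and ADAMTS17 were under 1 TPM in all 6 elder libraries, so that the module is better described as mRNAs that stood several-fold higher at 1D. The fold of mean relative level of 1D over the elder stages ranged from 3.29 to 117, with a median of 4.24 and quartiles of 3.62 and 5.43. It was over 4 for 117 members, over 8 for 15 and over 16 for 3.

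The median relative level of the members was 1.10, 1.17 and 0.787 in the libraries 1, 2 and 3 of 1D, 0.220, 0.195 and 0.238 in those of 13D, and 0.190, 0.164 and 0.279 in those of 26D. All values below that are given for single libraries follow this order. At 1D these mRNAs thus stood close to the typical mRNA of their library, and at 13D and 26D well under it. Their summed TPM made up 1.44%, 1.11% and 0.980% of all mRNA TPM at 1D, 0.263%, 0.224% and 0.201% at 13D, and 0.103%, 0.154% and 0.313% at 26D. The library with the highest share among the elder squabs was 26D replicate 3, which held the highest elder relative level of 98 members, while 26D replicate 2 held the lowest for 89. From 13D to 26D the mean relative level was higher for 80 members and lower for 120, within the limit that the choice set.

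**Figure D1:**
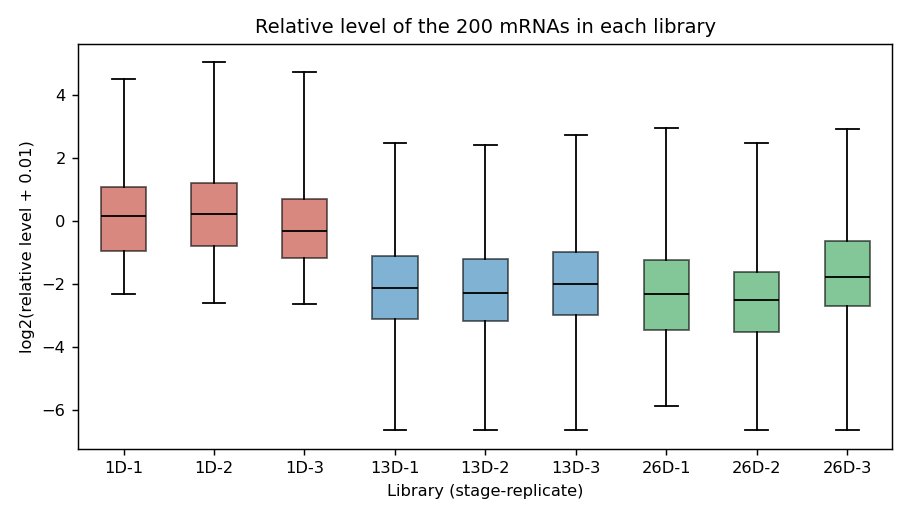
Relative level of the 200 mRNAs in each of the 9 libraries, as log2(relative level + 0.01), where the box spans the quartiles, the line is the median and the whiskers reach the lowest and highest member. The medians of the 3 libraries of 1D lie above those of the 6 elder libraries, at 0.787 to 1.17 against 0.164 to 0.279 before the log, while the boxes overlap in part since the members differ in level.

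The library median TPM was lowest in 26D replicate 1, at 5.95, and highest in 1D replicate 1, at 19.9. The most abundant lncRNA took between 13.7% and 38.9% of all TPM, with the highest share in 26D replicate 1. TPM values hold no counts, so the number of reads behind a single value is unknown. The paper lists the mapped reads of each library, and 1D replicate 2 had the fewest and the lowest mapped share. Without 26D replicate 1, the median fold of the members was 4.15 instead of 4.24, and no member's fold moved by more than a factor of 1.15. The same choice made on deposited TPM gave 77 of the 200 members again. Without a library of 1D, the fold dropped by over 1.5 times for 25 members without replicate 2, for 5 without replicate 1 and for 4 without replicate 3, and leaving out any single elder library did this for none. The tissue label was met in every library by B lineage genes, as CD79B, a signalling partner of the B cell receptor chosen after its values were seen, stood at 171 to 290.0 TPM at 1D, 407 to 515 TPM at 13D and 300.0 to 470.0 TPM at 26D.

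For the background over all mRNAs, each elder stage was compared with 1D by limma on log2(scaled TPM + 0.5), where scaled TPM is the relative level times the mean of the library medians. An mRNA was called at a Benjamini-Hochberg adjusted p under 0.05 over all 13072 mRNAs and an absolute log2 fold change over 1. In 13D vs. 1D, 994 mRNAs were called lower, 7.6% of those tested, and in 26D vs. 1D it was 698, or 5.34%. Calls in the other direction made up 1.97% and 1.47%. Both comparisons called 546 lower (4.18%). Of the members, 185 were called lower at 13D, 168 at 26D, 167 in both and 14 in neither, which follows from their choice on the same contrast. The 26D count rested on single libraries, as 12 mRNAs and 3 members were called without 1D replicate 1, 13 and 5 without 26D replicate 1, and 5 and 0 without 26D replicate 2. In that last fit 196 members were lower at an unadjusted p under 0.05 and all 200 had a log2 fold change under -1. Both counts also follow from the choice of the members and lend the calls no support. The 13D count fell to 329 and 102 members without 1D replicate 1, to 227 and 93 without 13D replicate 1, to 105 and 51 without 13D replicate 2, and to 239 and 90 without 13D replicate 3.

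The gene lists were chosen with earlier results of these data known, so the shares of their genes called lower or higher are a description too. Of these lists, that of collagens supplied the most members. Of 34 measured genes for collagens and the enzymes that modify them, 11 were members: COL1A2, COL5A1, COL5A2, COL6A1, COL6A2, COL6A3, COL12A1, COL14A1, COL16A1, LOX and P4HA3. Their fold of 1D over the elder stages ranged from 3.61 to 14.2, with a median of 5.42. COL14A1, a collagen that sits on the surface of fibrils, was at 43.9, 11.6 and 31 TPM at 1D, 1.62, 1.89 and 1.20 TPM at 13D and 0.544, 0.895 and 2.69 TPM at 26D. Its lowest library of 1D held 4.67 times the relative level of its highest elder library. COL5A1, which regulates the diameter of collagen fibrils, was at 54.4, 11.2 and 44.9 TPM at 1D, 5.58, 4.96 and 2.59 TPM at 13D and 0.567, 1.36 and 5.42 TPM at 26D, a fold of 8.80.

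COL1A2, a chain of type I collagen and the most abundant of these members, was at 315, 78.3 and 230.0 TPM at 1D, 34.3, 32.9 and 16.3 TPM at 13D and 4.72, 6.75 and 35.7 TPM at 26D. The stage means were 208 ± 120.0 TPM (SD, n = 3), 27.8 ± 9.98 and 15.7 ± 17.3 TPM, so the libraries within 1D and within 26D were spread several-fold, and those of 26D overlapped those of 13D. The members held 3 chains of type VI collagen, which forms beaded microfibrils. COL6A3 was at 73.7, 20.9 and 48.9 TPM at 1D, 12.1, 11.1 and 5.66 TPM at 13D and 1.06, 3.00 and 11.7 TPM at 26D. COL6A1 and COL6A2, which lie next to each other among the protein-coding genes of the RefSeq assembly, had folds of 4.58 and 4.57. LOX, the oxidase that starts the crosslinking of collagen and elastin, was at 124, 52.0 and 53.4 TPM at 1D, 18.2, 12.1 and 10.5 TPM at 13D and 2.86, 5.11 and 13.4 TPM at 26D. P4HA3, a catalytic subunit of the enzyme that hydroxylates proline in collagen, was at 6.04, 4.06 and 7.03 TPM at 1D and between 0.116 and 1.30 TPM in the 6 elder libraries. COL16A1, a collagen associated with fibrils, had a fold of 5.18 that was 3.08 without 1D replicate 3.

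In the whole collagen list, limma called 23 of 34 genes lower and 1 higher at 13D, and 20 lower and 0 higher at 26D (0 also at an unadjusted p under 0.05), against 7.6% and 5.34% of all mRNAs called lower. The median log2 fold change of the list was -1.54 at 13D and -1.75 at 26D, and that of all mRNAs was -0.00 and 0.02. Among the 23 genes of the list that were no members, 12 were called lower at 13D and 10 at 26D. They included COL3A1, at 1180.0, 350.0 and 933 TPM at 1D, 169, 139 and 80.8 TPM at 13D and 21.9, 28.7 and 131 TPM at 26D, which was left out of the members by the limit on the change from 13D to 26D. The other chain of type I collagen, COL1A1, was picked out once its values were known and was left out by the same limit, at 85.6, 17.0 and 62.2 TPM at 1D, 4.34, 4.53 and 3.09 TPM at 13D and 0.402, 0.654 and 4.77 TPM at 26D.

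Other matrix members were OGN, MATN2, LAMA2, LAMB1 and NID2, with folds of 3.85 to 5.71. OGN, a small leucine-rich proteoglycan of connective tissue, was at 72.6, 28.7 and 50.9 TPM at 1D, 14.0, 14.3 and 11.3 TPM at 13D and 2.28, 2.83 and 15.3 TPM at 26D. LAMB1, a laminin chain of basement membranes, was at 51.2, 17.4 and 37.7 TPM at 1D, 10.7, 11.3 and 6.30 TPM at 13D and 2.66, 4.91 and 8.98 TPM at 26D. LAMA2 is another laminin chain, NID2 links laminin to collagen IV, and MATN2 is an adaptor protein of matrix filaments. Of the 41 measured genes of this list, 21 were called lower and 1 higher at 13D and 17 lower and 1 higher at 26D by limma, with median log2 fold changes of -1.29 and -1.54. Of its 36 genes that were no members, 16 and 12 were called lower. SPARC, a matrix glycoprotein that binds collagen, was the most abundant of these at 350.0, 212 and 417 TPM at 1D, 135, 156 and 76.5 TPM at 13D and 34.1, 48.2 and 83.9 TPM at 26D, and it was called lower in both comparisons.

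Of the 20 symbols with the lowest ratios, 3 were secreted proteins with thrombospondin domains. ADAMTS1, a metalloprotease that cleaves proteoglycans, was at 36.8, 18.6 and 34.6 TPM at 1D, 3.35, 4.23 and 1.61 TPM at 13D and 0.482, 1.45 and 5.43 TPM at 26D. ADAMTS17, of the same family, was at 8.52, 3.70 and 7.21 TPM at 1D and at no more than 0.946 TPM in an elder library. ISM1, isthmin, was at 42.0, 10.5 and 25.3 TPM at 1D and between 1.01 and 3.10 TPM in the elder libraries. The folds of these genes were 9.16, 10.8 and 8.60.

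Smooth muscle genes supplied 8 members: ACTA2, MYH11, MYLK, MYL9, SMTN, SYNPO2, PDLIM3 and KCNMB1. MYH11, the myosin heavy chain of smooth muscle, was at 209, 145 and 161 TPM at 1D, 48.3, 19.4 and 14.3 TPM at 13D and 2.77, 12.8 and 44.2 TPM at 26D. MYLK, the kinase that switches this myosin on, was at 146, 56.7 and 93.2 TPM at 1D, 30.7, 15.1 and 11.9 TPM at 13D and 4.27, 9.98 and 31.6 TPM at 26D. Both were high in all libraries of 1D, and their highest elder libraries were 13D replicate 1 and 26D replicate 3 in TPM. MYL9, the regulatory light chain that MYLK phosphorylates, was at 16.5, 9.25 and 18.5 TPM at 1D, 2.74, 1.24 and 1.14 TPM at 13D and 0.136, 0.817 and 3.37 TPM at 26D.

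ACTA2, the smooth muscle actin, was at 269, 90.9 and 156 TPM at 1D, 63.4, 32.2 and 23.8 TPM at 13D and 11.9, 15.5 and 62.9 TPM at 26D. Actin genes share sequence, so how Kallisto split reads among ACTA2, ACTC1, ACTA1 and ACTG2 may make their single values uncertain, which was not tested. KCNMB1, the accessory subunit of the calcium-activated potassium channel that relaxes smooth muscle, was at 23.9, 33.5 and 16.2 TPM at 1D, 6.20, 2.78 and 2.64 TPM at 13D and 1.79, 2.07 and 7.06 TPM at 26D. KCNMA1, the pore of this channel, and PDE5A, which degrades cyclic GMP in smooth muscle, were members too and were singled out after their values were seen, with folds of 3.73 and 3.54. Without 1D replicate 2, the fold of KCNMB1 was 3.75 instead of 5.67 and that of PDLIM3, a protein of the actin cytoskeleton, 3.50 instead of 6.23. The relative level of all 8 listed members was highest, among the elder libraries, in 26D replicate 3.

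Of the 20 measured smooth muscle genes, limma called 17 lower at 13D and 13 at 26D and 0 higher (0 also at an unadjusted p under 0.05). With the members counted, which were chosen on the same contrast, this was the highest share called lower of the 19 lists in each comparison. Their median log2 fold changes were -1.87 and -1.82. The summed relative level of the list lay between 67.0 and 90.2 at 1D, 18.6 and 27.5 at 13D and 15 and 37.5 at 26D. Among the 12 genes that were no members, 9 and 5 were called lower. Of the 23 such genes of the collagen list it was 12 and 10, so that without members the shares of both lists were close at 26D, where the calls rested on single libraries. TAGLN, an actin-binding protein of smooth muscle, was at 124, 42.8 and 296 TPM at 1D, 14.1, 3.26 and 11.9 TPM at 13D and 1.81, 5.61 and 39.3 TPM at 26D, and was called lower at 13D only. The difference between the comparisons was not tested.

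**Figure D2:**
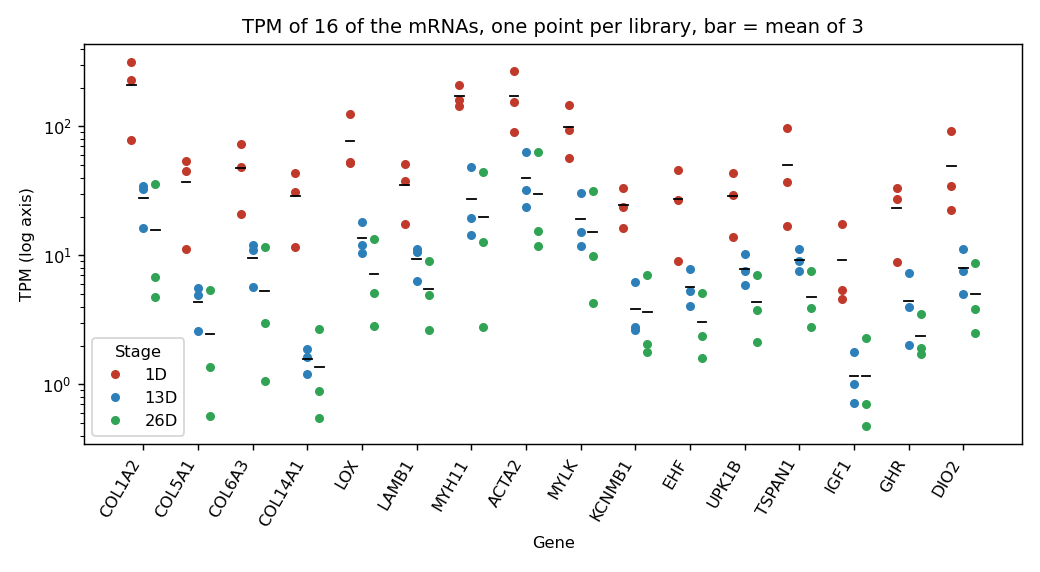
TPM of 16 of the members on a log axis, with 1 point per library and a bar at the mean of each stage. For each gene the 3 points of 1D lie above the 6 of 13D and 26D, as for COL1A2 with 78.3 to 315 TPM at 1D against 4.72 to 35.7 TPM in the elder libraries.

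The member with the largest fold was ACTC1, the actin of heart muscle, at 55.6, 5.84 and 16.4 TPM at 1D. It was at 0.114 and 0.0288 TPM in 13D replicates 1 and 3, at 0.0417 TPM in 26D replicate 1 and listed at 0 in the other elder libraries. Its fold of 117 therefore depends on the 0.01 added to each mean relative level, and it was 64.9 without 1D replicate 1. ACTC1 was the only member among 26 measured genes of striated muscle, and the only gene of the list that limma called lower in either comparison. Its most abundant other genes were high in 1D replicate 1, as ACTA1 was at 63.6, 2.34 and 6.57 TPM at 1D and TNNT3, a troponin of fast skeletal muscle, at 36.2, 1.36 and 1.86 TPM. TNNT3 reached 1.81 to 4.69 TPM in 5 of the 6 elder libraries. The summed relative level of the list ranged from 1.44 to 17.0 at 1D, 0.575 to 2.93 at 13D and 0.600 to 1.01 at 26D, and its part in the high ACTC1 value of 1D replicate 1 was not tested.

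HBAD, an alpha-type globin of avian red cells, was at 14.5, 1.76 and 16.5 TPM at 1D. It was listed at 0 in 5 elder libraries and at 0.0544 TPM in 26D replicate 1, and its fold of 58.7 depends on the same added 0.01 and was 39.1 without 1D replicate 3. Globin genes share sequence, so this value may be uncertain in the way of the actins. Of 9 measured erythroid genes, HBAD alone was a member and the only one called lower at 13D, and 3 were called lower at 26D. TFRC, the transferrin receptor, which other dividing cells also carry, stood at 138, 58.8 and 68.6 TPM at 1D, 81.7, 98.4 and 48.2 TPM at 13D and 24.9, 47.5 and 46.4 TPM at 26D. The summed relative level of the erythroid list was 6.01 to 8.68 at 1D, 5.05 to 5.86 at 13D and 4.13 to 4.50 at 26D.

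Of 37 measured epithelial genes 3 were members, and of the 34 others limma called 9 lower at 13D and 12 at 26D. The members on the fixed list were EHF, a transcription factor of epithelia, UPK1B, a membrane protein of the urothelial plaque, and TJP3, a scaffold of tight junctions. EHF was at 46.3, 26.9 and 9.11 TPM at 1D, 7.80, 5.27 and 4.06 TPM at 13D and 1.59, 2.36 and 5.15 TPM at 26D. UPK1B was at 43.7, 29.3 and 13.8 TPM at 1D, 10.2, 7.61 and 5.91 TPM at 13D and 2.14, 7.06 and 3.77 TPM at 26D. Both were lowest at 1D in replicate 3, where the relative level of EHF was 1.39 times that of its highest elder library. TSPAN1, a tetraspanin of epithelial cells, was at 37.0, 98.1 and 16.8 TPM at 1D, 11.2, 9.07 and 7.55 TPM at 13D and 2.77, 3.92 and 7.56 TPM at 26D. Its fold of 7.02 was 2.73 without 1D replicate 2.

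With the members, limma called 12 lower at 13D and 15 at 26D and 0 higher (1 and 0 at an unadjusted p under 0.05), with median log2 fold changes of -0.91 and -0.98. EPCAM, the general adhesion molecule of epithelia, was not called, at 346, 327 and 174 TPM at 1D, 242, 283 and 175 TPM at 13D and 92.8, 188 and 178 TPM at 26D. Its fitted change was below 0 with all libraries and 0.09 in both comparisons without 1D replicate 2. AGR2, a chaperone of mucus-secreting cells, was not called either, at 317, 156 and 39.9 TPM at 1D, 44.9, 32.5 and 36.3 TPM at 13D and 19.0, 12.4 and 36.3 TPM at 26D. CDH1, the epithelial cadherin, which was picked out once its values were known, was called lower in both, at 35.3, 17.0 and 22.6 TPM at 1D, 9.90, 9.56 and 6.28 TPM at 13D and 2.47, 4.73 and 9.14 TPM at 26D.

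Further epithelial members were gathered by their known roles after their values were seen. With the 3 listed genes and TSPAN1 they made a group of 16, among them the transcription factors FOXI1, TFCP2L1, OVOL2 and KLF4, the apical protein PROM1 and the junction receptor CXADR. FOXI1, which specifies ion-transporting cells in other vertebrate epithelia, was at 22.3, 22.5 and 11.1 TPM at 1D, 6.29, 3.38 and 3.42 TPM at 13D and 1.52, 2.84 and 2.69 TPM at 26D. TFCP2L1, a factor of duct epithelia in mouse, was at 35.6, 41.3 and 16.8 TPM at 1D, 8.06, 7.95 and 4.95 TPM at 13D and 1.52, 3.91 and 5.57 TPM at 26D. In all 16 the lowest relative level of 1D was in replicate 3, and in 11 the highest was in replicate 2. The fold of the group ranged from 3.30 to 7.02.

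The 1D squabs did not rank alike for the different groups. Over all members the lowest relative level of 1D was in replicate 3 for 105, in replicate 2 for 62 and in replicate 1 for 33. In the collagen group replicate 2 was the lowest for 8 of 11 members and the highest for none. In the epithelial group, which was gathered after its values were seen, replicate 2 was the lowest for none of 16. The smooth muscle members were lowest in replicate 2 for 4 of 8 and in each other library for 2. In the elder squabs, 26D replicate 3 was the highest for 10 of 11 collagen members and for 1 of 16 epithelial members. Each library was a different bird, and whether the whole BF or a piece of it was used is not stated. Differences between birds and between the tissue samples cannot be told apart.

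**Figure D3:**
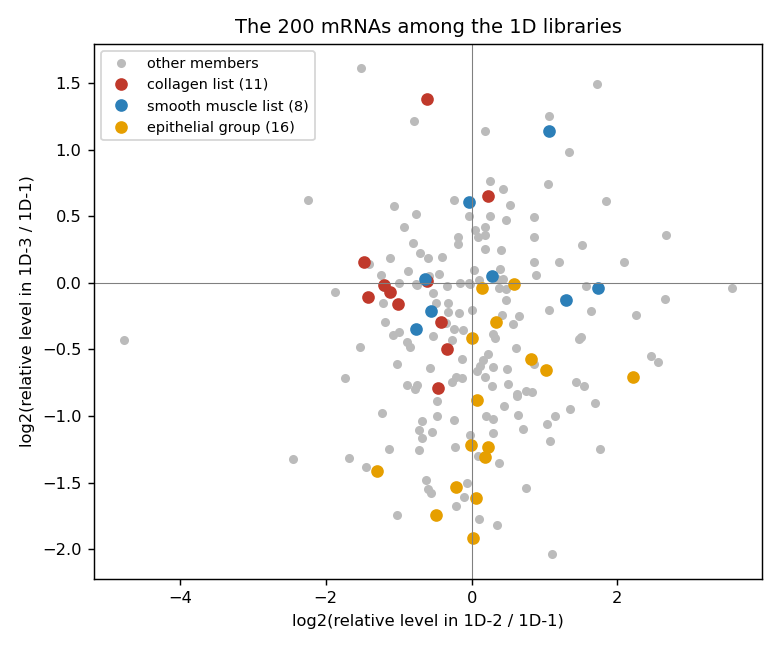
Each member by its log2 ratio of relative level in 1D replicate 2 to replicate 1 (horizontal) and in 1D replicate 3 to replicate 1 (vertical), with the collagen list in red, the smooth muscle list in blue, the epithelial group in orange and the other members in grey. The epithelial points, a group gathered after its values were seen, all lie at or below 0 on the vertical axis. On the horizontal axis 10 of the 11 collagen members lie left of 0.

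Signalling members came from several pathways with a few genes each. MDK, midkine, a heparin-binding growth factor of embryonic tissues, was at 20, 6.05 and 19.9 TPM at 1D, 0.667, 1.90 and 0.566 TPM at 13D and 0.267, 0.420 and 1.68 TPM at 26D, a fold of 12.3. EPHB2, a receptor for ephrin-B ligands, was at 14.1, 3.70 and 11.9 TPM at 1D, 1.49, 1.89 and 1.24 TPM at 13D and 0.256, 0.702 and 1.64 TPM at 26D. The guidance ligands SLIT2 and RGMA, which bind ROBO receptors and neogenin, had folds of 3.29 and 3.61. Of 43 measured genes of axon guidance and neural adhesion, limma called 18 lower at 13D and 10 at 26D and 0 higher (0 also at an unadjusted p under 0.05). Among the 39 of these that were no members, 14 and 6 were called lower, against 7.6% and 5.34% of all mRNAs. PTN, pleiotrophin, the closest relative of midkine, was not called and was at 36.2, 75.1 and 8.36 TPM at 1D against 2.41 to 6.67 TPM in the elder libraries. None of the 25 measured markers of neurons and glia was a member, and only 4 had the mean of at least 5 TPM at 1D that the choice required. Of the 25, 11 were called lower and 1 higher at 13D, and 5 lower and 2 higher at 26D. At an unadjusted p under 0.05 by limma it was 19 lower and 2 higher at 13D, and 16 lower and 2 higher at 26D. The median log2 fold changes of the list were -1.07 and -1.05. Its summed relative level, in which the most abundant genes weigh most, was 13.7 to 52.3 at 1D, 10.3 to 41.4 at 13D and 42.6 to 71.9 at 26D.

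Of the Wnt pathway, the receptor ROR2 and the secreted antagonist FRZB were members. ROR2 was at 12.8, 5.86 and 8.16 TPM at 1D, 3.48, 2.05 and 1.55 TPM at 13D and 0.587, 0.880 and 2.98 TPM at 26D. FRZB, just inside the threshold of the choice, was at 10, 2.89 and 7.40 TPM at 1D, 3.19, 1.38 and 1.37 TPM at 13D and 0.472, 0.771 and 2.38 TPM at 26D. In TPM its second library of 1D lay below its first of 13D, so that it did not overlap only after scaling. Of the 48 measured Wnt genes, 11 were called lower at 13D and 9 at 26D. Among the 46 of these that were no members it was 9 and 7, against 7.6% and 5.34% of all mRNAs. WIF1, a secreted Wnt antagonist that was no member, was at 91.5, 128 and 58.0 TPM at 1D, 39.2, 30.1 and 25.5 TPM at 13D and 17.8, 13.3 and 3.78 TPM at 26D. Against 1D the log2 difference was -1.49 at 13D (limma adjusted p = 0.0398) and -2.48 at 26D (limma adjusted p = 0.0738). CTNNB1, the beta-catenin that carries the signal, had a log2 fold change of -0.91 at 13D (limma adjusted p = 0.022), short of the fold threshold, and of -0.74 at 26D (limma adjusted p = 0.0972). FST, which binds activins and BMPs, was the member of the BMP and TGF-beta list, at 73.9, 14.6 and 39.1 TPM at 1D, 17.3, 6.73 and 8.06 TPM at 13D and 5.45, 5.76 and 9.06 TPM at 26D. NBL1, another secreted BMP antagonist and 1 of the 10 most abundant members, was at 84.3, 158 and 175 TPM at 1D, 37.4, 48.5 and 41.3 TPM at 13D and 22.8, 25.9 and 37.8 TPM at 26D. Of the 33 measured genes of the BMP and TGF-beta list, 10 were called lower and 1 higher at 13D and 9 lower and 1 higher at 26D. Among the 32 of these that were no members, 9 and 8 were called lower. None of the 15 measured Hedgehog genes was a member, and only 5 had a mean of at least 5 TPM at 1D. In each comparison 2 of the 15 were called lower (13.3%), against 7.6% and 5.34% of all mRNAs. At an unadjusted p under 0.05 by limma, 8 were lower at 13D and 9 at 26D and 0 higher, with median log2 fold changes of -0.71 and -0.93.

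Growth factor members were IGF1, IGF2, PDGFRL and SPRY1. IGF1, the insulin-like growth factor that mediates much of growth hormone action, was at 17.4, 4.58 and 5.44 TPM at 1D, 1.77, 0.714 and 1.01 TPM at 13D and 0.479, 0.703 and 2.30 TPM at 26D. IGF2, the form prominent before birth in mammals, was at 20.2, 13.7 and 25.4 TPM at 1D, 4.51, 5.05 and 4.13 TPM at 13D and 2.17, 1.89 and 8.67 TPM at 26D. IGF2R moved the other way, at 96.0, 48.9 and 73.1 TPM at 1D, 199, 218 and 151 TPM at 13D and 101, 215 and 150.0 TPM at 26D, and was called higher in both comparisons. SPRY1, an inhibitor of receptor tyrosine kinase signalling, and PDGFRL, a protein related to a PDGF receptor, had folds of 3.54 and 4.30. Of 38 measured genes of FGF, IGF and PDGF signalling, 13 were called lower and 1 higher at 13D and 8 lower and 1 higher at 26D. Among the 34 of these that were no members, 9 and 5 were called lower, against 7.6% and 5.34% of all mRNAs.

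Genes of hormone action that were members were gathered after their values were seen, 13 with IGF1, IGF2 and FST. GHR, the growth hormone receptor, was at 27.4, 33.1 and 8.94 TPM at 1D, 7.35, 3.99 and 2.03 TPM at 13D and 1.91, 1.73 and 3.53 TPM at 26D. CISH, an inhibitor that cytokine and growth hormone receptors induce, was at 24.6, 13.0 and 14.3 TPM at 1D, 5.97, 5.45 and 3.44 TPM at 13D and 1.22, 2.08 and 6.92 TPM at 26D. DIO2, the deiodinase that makes active thyroid hormone, was at 91.5, 22.3 and 34.3 TPM at 1D, 11.2, 7.63 and 4.98 TPM at 13D and 2.52, 3.82 and 8.79 TPM at 26D. Without 1D replicate 2 the fold of GHR was 3.66 instead of 5.98.

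SRD5A2, a reductase that turns testosterone into dihydrotestosterone, was at 83.2, 1.76 and 45.7 TPM at 1D and between 0.243 and 0.962 TPM in the elder libraries. Its fold of 46.7 rests on replicates 1 and 3 of 1D, since replicate 2 held 2.87 times the relative level of the highest elder library, and it was 30.7 without replicate 1.

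Among peptide hormones and their receptors, GAL, galanin, was at 51.0, 10.2 and 115 TPM at 1D, 4.88, 5.79 and 5.83 TPM at 13D and 1.33, 6.97 and 6.07 TPM at 26D. STC2, stanniocalcin 2, a secreted glycoprotein, was at 32.3, 33.3 and 30.3 TPM at 1D, 4.59, 7.36 and 2.1 TPM at 13D and 1.26, 2.16 and 3.68 TPM at 26D. STC2 was close to even in TPM across the squabs of 1D (31.9 ± 1.53 TPM, SD, n = 3) but 1.80-fold apart from lowest to highest in relative level, and GAL was spread more widely (58.8 ± 52.9 TPM, and 8.71-fold in relative level). Without 1D replicate 3 the fold of GAL was 4.17 instead of 9.04. MC5R, a melanocortin receptor, was at 3.78, 25.7 and 2.72 TPM at 1D and between 0.426 and 1.74 TPM in the elder libraries, so that its fold of 10.3 rests mainly on replicate 2. The other members of this group were VIPR1, a receptor for vasoactive intestinal peptide, RAMP3, which alters the calcitonin receptor family, and HPGD, which inactivates prostaglandins, with folds of 3.79, 3.48 and 4.22. The fold of HPGD without 1D replicate 2 was 1.49, and that of MC5R 2.28.

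Patterning transcription factors gave 4 members, MEIS1, MSX2, NR2F2 and BARX2. MEIS1, a partner of HOX proteins, was at 132, 41.5 and 104 TPM at 1D, 26.1, 40.3 and 18.3 TPM at 13D and 5.33, 15.6 and 24.0 TPM at 26D. MSX2, a homeobox factor of budding epithelia and mesenchyme, was at 17.6, 9.68 and 4.59 TPM at 1D, 1.39, 2.33 and 1.58 TPM at 13D and 0.588, 1.36 and 1.16 TPM at 26D. NR2F2, an orphan nuclear receptor of mesenchyme and veins, and BARX2, a homeobox factor, had folds of 3.56 and 3.42. Of 62 measured genes of this list, limma called 16 lower at 13D and 14 at 26D and 0 higher (0 also at an unadjusted p under 0.05). Of its 58 genes that were no members, 12 and 10 were called lower, against 7.6% and 5.34% of all mRNAs. Among its genes that were no members, OSR1 was at 52.1, 29.1 and 48.0 TPM at 1D, 12.1, 12.9 and 10.6 TPM at 13D and 5.22, 7.32 and 15.8 TPM at 26D, and was called lower in both.

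Members tied to interferon were also singled out after their values were seen. RSAD2 and CMPK2, interferon-induced enzymes that make antiviral nucleotides and their precursors, lie next to each other in the RefSeq assembly. RSAD2 was at 33.7, 20.7 and 7.28 TPM at 1D, 3.46, 4.04 and 5.26 TPM at 13D and 1.16, 1.25 and 6 TPM at 26D. CMPK2 was at 26.6, 10.5 and 9.08 TPM at 1D, 2.99, 2.87 and 4.56 TPM at 13D and 1.04, 1.26 and 6.50 TPM at 26D. For RSAD2, 1D replicate 3 was only 1.01 times the relative level of 26D replicate 3. USP18, which removes the ubiquitin-like protein ISG15, and UBE2L6, which helps to attach it, had folds of 4.43 and 5.52. All 4 were lowest at 1D in replicate 3, as were the epithelial members. IL10, a cytokine that restrains inflammation, was at 25.3, 47.1 and 9.98 TPM at 1D, 4, 3.55 and 5.54 TPM at 13D and 3.21, 3.89 and 3.83 TPM at 26D, and its fold of 5.61 was 2.71 without 1D replicate 2.

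Some of the remaining members with the lowest ratios encode enzymes, transporters or channel subunits. MAT1A, which makes S-adenosylmethionine, was at 10.4, 16 and 4.57 TPM at 1D, 1.54, 0.758 and 0.724 TPM at 13D and 0.133, 0.459 and 1.49 TPM at 26D. CHAC1, which degrades glutathione, was at 4.59, 11.2 and 3.80 TPM at 1D and between 0.122 and 1.33 TPM in the elder libraries. PSAT1, an enzyme of serine synthesis named after its values were seen, was at 17.0, 15.1 and 7.06 TPM at 1D, 2.92, 2.51 and 0.921 TPM at 13D and 0.822, 1.53 and 1.93 TPM at 26D. All 3 enzymes of amino acid metabolism, and GLUL, which makes glutamine, had their highest relative level of 1D in replicate 2. Without that library the fold was 5.81 instead of 10.3 for MAT1A, 4.06 instead of 7.98 for CHAC1 and 1.54 instead of 3.66 for GLUL. SLC27A6, a transporter of fatty acids, was at 16, 9.75 and 4.80 TPM at 1D and between 0.423 and 1.65 TPM in the elder libraries. KCNIP1, a subunit of voltage-gated potassium channels and the neighbour of KCNMB1 in the RefSeq assembly, was at 12.0, 2.13 and 3.56 TPM at 1D and between 0.103 and 0.334 TPM in the elder libraries, with a fold of 14.0 that was 8.88 without 1D replicate 1.

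By level, 8 members were over 100 TPM on average at 1D and 66 were under 10 TPM. The most abundant was FGG, the gamma chain of fibrinogen, at 316, 374 and 391 TPM at 1D, 98.5, 94.0 and 71.5 TPM at 13D and 46.0, 66.0 and 92.7 TPM at 26D. It averaged 360.0 ± 39.6 TPM (SD, n = 3) at 1D, where its relative level was spread 2.07-fold, and remained at 88.0 ± 14.5 and 68.2 ± 23.4 TPM in elder squabs. CKB, the brain-type creatine kinase, was at 132, 94.7 and 73.2 TPM at 1D, 29.7, 18.6 and 20.4 TPM at 13D and 7.44, 14.6 and 19.9 TPM at 26D. ANXA8L1, an annexin that binds membranes in the presence of calcium, was at 145, 185 and 53.7 TPM at 1D and between 11.2 and 28.6 TPM in the elder libraries, and its fold of 4.68 was 2.83 without 1D replicate 2. LOC102087856 and LOC102092868, which the RefSeq table does not describe, were at 451, 166 and 119 TPM and at 272, 174 and 134 TPM at 1D, with folds of 5.72 and 3.54. The other members among the 10 most abundant were COL1A2, ACTA2, MYLK, MYH11 and NBL1.

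Of the 19 gene lists, 11 held members and 8 held none, with 44 members on a list. No member came from the lists of the endothelium, B, T and myeloid cells, or the cell cycle. B lineage genes moved the other way. By limma 0 of 20 were called lower and 5 higher in each comparison (0 lower at an unadjusted p under 0.05, and 16 and 15 higher), and their summed relative level was 105 to 152 at 1D, 217 to 254 at 13D and 273 to 351 at 26D. Of 35 cell cycle genes, limma called 0 lower (1 in each comparison at an unadjusted p under 0.05), and 5 higher at 13D and 0 at 26D (20 and 6 at an unadjusted p under 0.05). Of 17 endothelial genes, 3 were called lower at 13D and 1 at 26D, and 0 higher. At an unadjusted p under 0.05 by limma, 11 and 9 were lower and 0 higher, and the median log2 fold changes were -0.83 and -0.82. Only 7 of the 17 had the mean of at least 5 TPM at 1D that the choice required. Of these 7, 4 had all elder libraries below those of 1D in relative level, against 11.3% of all such mRNAs. The part of the higher level of B lineage RNA in the lower relative level of the members was not tested.

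**Figure D4:**
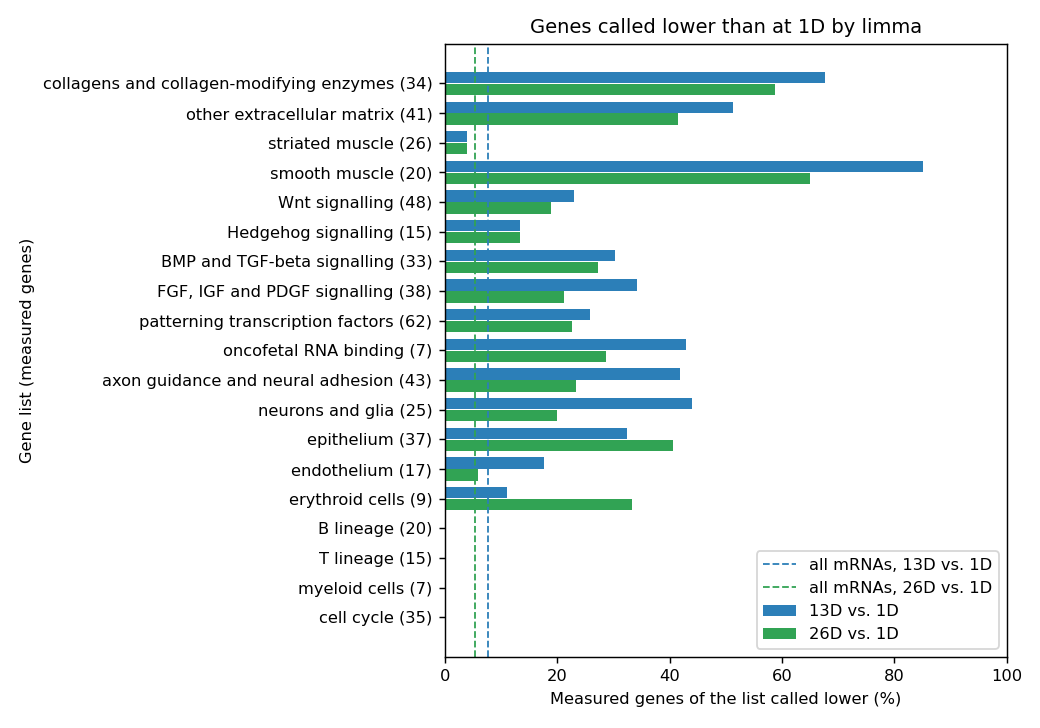
Share of the measured genes of each list that limma called lower in 13D vs. 1D (blue) and 26D vs. 1D (green), with the number of measured genes in brackets and dashed lines at the share over all mRNAs, 7.6% and 5.34%. Smooth muscle and collagen genes have the longest bars, and B lineage, T lineage, myeloid and cell cycle genes have none. The lists include members, which were chosen on the same contrast.

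At the threshold of the choice, the log2 ratio of elder to 1D level was -1.72 for the last members inside, SYNJ2, MAP7, FRZB, SLIT2 and ATRNL1, and -1.71 for mRNAs just outside, among them PPDPF, NIPAL2 and PLAG1. PPDPF had mean TPM of 45.3 at 1D, 13.7 at 13D and 8.82 at 26D. No gap separates the members from the mRNAs that follow. In the order of protein-coding genes of the RefSeq assembly, 6 pairs of members were neighbours, and beside the 3 pairs named these were FAM3B and LOC102087856, SLC27A6 and ISOC1, and ROR2 and NFIL3.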

How the data were processed

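Reads were aligned by the authors to build Cliv_1.0 (STAR 2.6.0c). Transcripts came from Cufflinks 2.1.1 and TACO, and Kallisto gave the TPM that the authors deposited per library. The tables list an mRNA where any library passed 0.5 TPM, and a lncRNA where any passed 0.1 TPM. TPM keeps no read counts per gene, so counting errors are unknown. The authors' own tool for differential expression, edgeR, needs counts, and was not used here.

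TPM were divided by the library median over the 10027 mRNAs above 0.5 TPM in all 9 libraries, and the members were chosen on these values with 0.01 added to each mean. limma 3.58.1 in R 4.3.3 (lmFit, eBayes with trend) was run on log2(scaled TPM + 0.5) for all 13072 mRNAs, with the 6 libraries of the compared stages, and was tested on simulated data. A fold on this log scale understates the change of low genes. Tables and figures were made with Python 3.11.15, pandas 2.3.3 and matplotlib 3.10.9.

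Named genes are the members on 1 of 19 gene lists, the 20 with the lowest ratio and a symbol, the 10 most abundant at 1D, those nearest the threshold, and for each list with members its 2 most abundant other genes, except a few items that are not reported here. The members, lists and this rule were chosen with earlier results of these data known. Genes named outside this rule, apart from neighbouring pairs, were picked after their values were seen. Symbols come from RefSeq (assembly bColLiv1.pat.W.v2, 12387 IDs matched), which is not the build of the files, so positions are not given. Replicates were separate squabs. Alternatives were other scalings, pseudocounts, a filter, no trend, all libraries in one fit, the replicate number as a block and each library left out. The folds of members without single libraries were added after the data were seen.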

Additional observations from a re-analysis of the deposited data

How the results depend on the processing

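In 13D vs. 1D, 994 mRNAs were called lower, and between 105 and 1284 when 1 library was dropped, and other settings kept the count within 1.5 times. In 26D vs. 1D, the 698 became 1642 on deposited TPM, where the typical mRNA shifted by -0.52 (log2), 1104 with all 9 libraries in one fit and 361 with the replicate block, and 5 to 906 when 1 library was dropped. The block gave 681 in 13D vs. 1D. Each library came from a separate bird, so the numbers do not pair libraries of the same squab. In deviations from the stage means, same-numbered libraries correlated at -0.296 to 0.421 and differently numbered ones at -0.367 to 0.28. Whether same-numbered libraries shared anything else is not stated. The choice of members gave 77 of the 200 again on deposited TPM, 115 with a mean of at least 1 TPM at 1D, and 134 to 178 with a library left out. The cause of these differences was not tested. Of 1820 log2 fold changes recomputed for 65 named members, 0 changed sign. The choice of the members fixed this in advance in every setting that kept the same scaling. For other genes, which were not chosen in this way, 6 changed sign. Without 1D replicate 1, TNNT3 was at 0.65 at 13D and 0.12 at 26D against 1D, and over the dropped libraries its lowest values were -1.13 and -1.71. EPCAM was at 0.09 at both stages without 1D replicate 2, with -0.55 as the lowest value at each. IGFBP7 at 26D was at -0.42 on deposited TPM, and between -0.08 (without 26D replicate 1) and 0.53 over the dropped libraries. Values near or below 0.5 TPM are limited by the unknown number of reads behind them.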
